A study of Mus musculus with 10 samples.

Results

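The autophagy and mitophagy machinery was followed here as 38 named genes in mouse heart RNA, read from a table of 31655 genes. The genes were taken by symbol from a list of core factors and were placed in 8 roles: initiation, the class III PI3 kinase complex, membrane supply, conjugation, the ATG8 proteins, cargo receptors, the lysosome and mitophagy. All 38 matched a single Ensembl identifier, and all 38 passed the filter on low counts. The study examined septic cardiomyopathy, the heart dysfunction of sepsis, modelled with lipopolysaccharide (LPS), a bacterial cell wall component. It asked what baicalin, a flavone glucuronide from Scutellaria baicalensis, does in that setting.

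Mice of the LPS group were gavaged with distilled water and then received LPS at 10 mg/kg as a single intraperitoneal injection. Mice of the baicalin plus LPS group were gavaged with baicalin at 100 mg/kg for 14 days and then received the same 10 mg/kg of LPS. Cardiac tissue was taken 72 hours after the LPS in both groups, so every library compared here came from an LPS-injected animal by its label. The design text describes 8 mice per group, and 5 libraries of each group were analysed. The untreated group that it names was not analysed here, so no value below says how LPS itself acts on these genes. Strain, age and sex were not given, and no label says which mouse a library came from, so the p-values reflect spread among libraries that may or may not be separate animals.

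Autophagy encloses cytoplasm in a membrane that closes into an autophagosome and delivers it to the lysosome. The ULK1 kinase complex starts the process, a phosphatidylinositol 3-kinase complex marks the membrane, and lipid carriers enlarge it. A ubiquitin-like conjugation system then attaches ATG8 proteins such as LC3 to the membrane, where cargo receptors dock. Mitophagy is the selective form that removes mitochondria, and it is well known in cardiomyocytes, which are rich in mitochondria. RNA levels measure the supply of transcripts for this machinery. They do not measure autophagic flux, which depends on phosphorylation, lipidation and lysosomal turnover.

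Promoter sequence is shown for the 4 members on which the comparison below turns most, and for the pair with the most E-box copies. It comes from the RefSeq promoter table on GRCm38.p6, which held 31 of the 38 members. Each line gives the 120 bases upstream of the annotated start, 5′ to 3′ on the strand of the gene, in lower case. Capitals mark CACGTG, the palindromic E-box contained in the CLEAR element through which TFEB, a regulator of lysosomal and autophagy genes, is known to act.
Lamp1, chr8:13159041-13159160, plus strand: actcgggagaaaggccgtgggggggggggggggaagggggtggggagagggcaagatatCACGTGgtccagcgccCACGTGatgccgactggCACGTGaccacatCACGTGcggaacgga
Atg3, chr16:45158709-45158828, plus strand: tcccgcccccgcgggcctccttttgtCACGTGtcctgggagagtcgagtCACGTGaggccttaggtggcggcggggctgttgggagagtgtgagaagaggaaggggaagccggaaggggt
Ulk1, chr5:110810082-110810201, minus strand: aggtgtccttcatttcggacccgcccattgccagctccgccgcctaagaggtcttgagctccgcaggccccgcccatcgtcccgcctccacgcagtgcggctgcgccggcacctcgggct
Atg2a, chr19:6241548-6241667, plus strand: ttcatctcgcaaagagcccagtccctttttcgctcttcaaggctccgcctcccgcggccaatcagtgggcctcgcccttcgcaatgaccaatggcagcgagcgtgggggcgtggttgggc
Atg2b, chr12:105685242-105685361, minus strand: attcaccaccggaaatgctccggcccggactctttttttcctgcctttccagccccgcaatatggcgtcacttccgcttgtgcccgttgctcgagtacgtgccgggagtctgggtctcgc
Atg9a, chr1:75192011-75192130, minus strand: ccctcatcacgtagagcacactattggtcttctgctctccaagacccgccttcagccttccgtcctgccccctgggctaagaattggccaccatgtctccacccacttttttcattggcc

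The Lamp1 window held 4 copies of CACGTG and the Atg3 window held 2. Searched on both strands over 250 bases before to 50 bases after the start, CACGTG was present for 5 of 31 members, namely Atg14, Atg3, Atg5, Atg7 and Lamp1. That is 16.1% of the members, beside 8.09% of the 27025 genes in the promoter table. The forkhead sequence GTAAACA was in none of the 31, beside 4.05% of all genes. The core of the antioxidant response element, TGACNNNGC, was in 4 of 31 (12.9%: Atg13, Map1lc3b, Tax1bp1 and Ulk2), beside 14% of all genes. None of the 3 sequences contains another. A match of letters is a description of the window and says nothing about binding.

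The 38 transcripts spanned a wide range of abundance. On the deposited FPKM scale, which corrects for length and library total, their means over the 10 libraries ran from 1.64 for Uvrag to 136 for Map1lc3a, with a median of 7.28. After Map1lc3a, which encodes an LC3 protein, came Lamp1, a lysosomal membrane glycoprotein, at 124 FPKM and Pink1, a kinase that marks damaged mitochondria, at 117 FPKM. Sqstm1, which encodes the receptor p62, followed at 104 FPKM and Gabarap, another ATG8 protein, at 85.4 FPKM. The least abundant were Atg14 (1.68 FPKM) and Uvrag, alternative partners of Beclin 1, with Atg7 (1.95 FPKM), the E1-like enzyme of conjugation. Over the 10 libraries the spans overlapped for 36 of the 37 pairs of neighbours in this order, as the plot of levels by gene shows. The exception was Gabarap, at 64.5 to 103 FPKM, above Gabarapl1, at 25.7 to 47.5 FPKM.

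**Figure D1:**
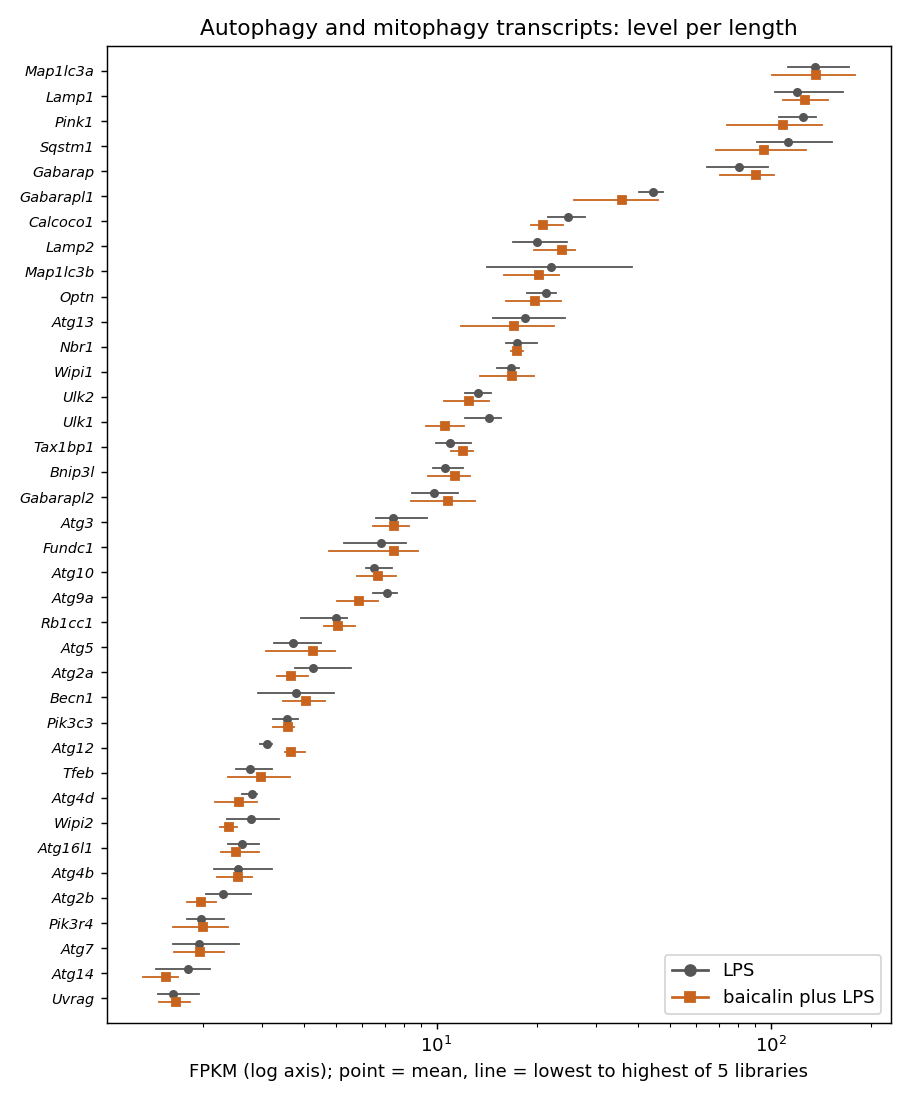
Level of each of the 38 transcripts in FPKM on a log axis, with the mean as a point and the lowest to highest of the 5 libraries of each group as a line. Map1lc3a, Lamp1, Pink1 and Sqstm1 are above 100 FPKM on average, and the spans of the LPS and baicalin plus LPS groups overlap for every gene except Ulk1 and Atg12.

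Several libraries stood apart, and the results that rest on them are given with and without them. Summed over Lcn2, Saa3 and Serpina3n, transcripts of the acute-phase response that LPS is known to induce, the libraries labelled LPS 1, 2 and 3 held 23.4, 20.9 and 19.0 CPM (counts scaled to the library's size). LPS 4 and 5 held 2312 and 1233 CPM, and the baicalin plus LPS libraries held 442 to 1562 CPM. LPS 1 to 3 therefore go against their label on these transcripts. Whether they received or responded to LPS as labelled was not tested. They are named by their label throughout, and being 3 of the 5 control libraries they enter every fold change below unless it is said to leave them out. LPS 4 also had the smallest mitochondrially encoded share of counts, 30.2%, beside a group mean of 39.1 ± 5.61% (SD, n = 5). Baicalin 2 and 3 had the highest summed fibroblast markers, 1337 and 2009 CPM, beside 506 to 757 CPM in the LPS group, and the highest summed macrophage markers, 1187 and 1326 CPM. Library totals ran from 39396357 to 75744274 counts. Cardiomyocyte markers were abundant in all 10 libraries, at 39480 CPM or more in sum.

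None of the 38 genes differed between baicalin plus LPS and LPS at an adjusted p below 0.05 in edgeR's quasi-likelihood test, and 0% of the 16850 genes tested did. The smallest adjusted p among the members was 0.298, for Ulk1. At an unadjusted p below 0.05, 6 members were lower with baicalin and 0 were higher. The background was 5.88% of all genes lower and 5.26% higher. The 6 were Ulk1, Atg2a, Atg9a, Atg2b, Wipi2 and Calcoco1, so 4 of them belong to the 5 genes of membrane supply. Heart tissue is a mixture of cells, in which fewer cells of a type and less RNA per cell cannot be told apart.

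In all, 27 of the 38 members had a lower mean with baicalin, beside 50.6% of all genes tested. Their median log2 fold change was -0.07, beside -0.00 over all genes. The scaling of libraries moved the members and all genes together. With plain library totals in place of trimmed mean of M-values (TMM) factors, 16 of 38 members (42.1%) were lower, beside 38.6% of all genes, and the median was 0.01, beside 0.07. The members' median was thus below that of all genes by a like amount under both scalings, -0.069 with TMM and -0.068 with totals. Counts of lower means with library totals given below are to be read against that 38.6%. With the same totals, 3 members were lower at an unadjusted p below 0.05 (Ulk1, Atg9a and Calcoco1; background 2.81%) and 1 was higher (Atg12; background 6.61%). Without LPS 1 to 3, 23 members (60.5%) had a lower mean, beside 45.8% of all genes. At an unadjusted p below 0.05, 1 member was then lower (Atg2b; background 7.25%) and 1 was higher (Atg12; background 4.8%). Without baicalin 2 and 3, 23 members were lower, beside 52.4% of all genes, and the median was -0.03, beside -0.02 over all genes. In that fit 4 members were lower at an unadjusted p below 0.05 (background 5.43%) and 0 were higher (background 4.01%).

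In the fit of all libraries, the intervals set a bound on the differences. For 29 of the 38 members the 95% interval of the fold change lay within 1.5-fold in either direction, and for all 38 it lay within 2-fold. The estimate itself was within 1.2-fold for 29 members, which is 76.3% of them beside 63.1% of all genes. The 9 with wider intervals were Ulk1, Atg13, Atg14, Atg9a, Map1lc3b, Gabarapl1, Sqstm1, Calcoco1 and Pink1. No interval is given for the fit without LPS 1 to 3, and the 2-fold bound does not carry over to it. In that fit Map1lc3b differed by -0.55 ± 0.25, Sqstm1 by -0.43 ± 0.30 and Fundc1 by 0.36 ± 0.20 on the log2 scale. For Map1lc3b and Sqstm1 the estimate less 2 SE lies beyond 2-fold.

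**Figure D2:**
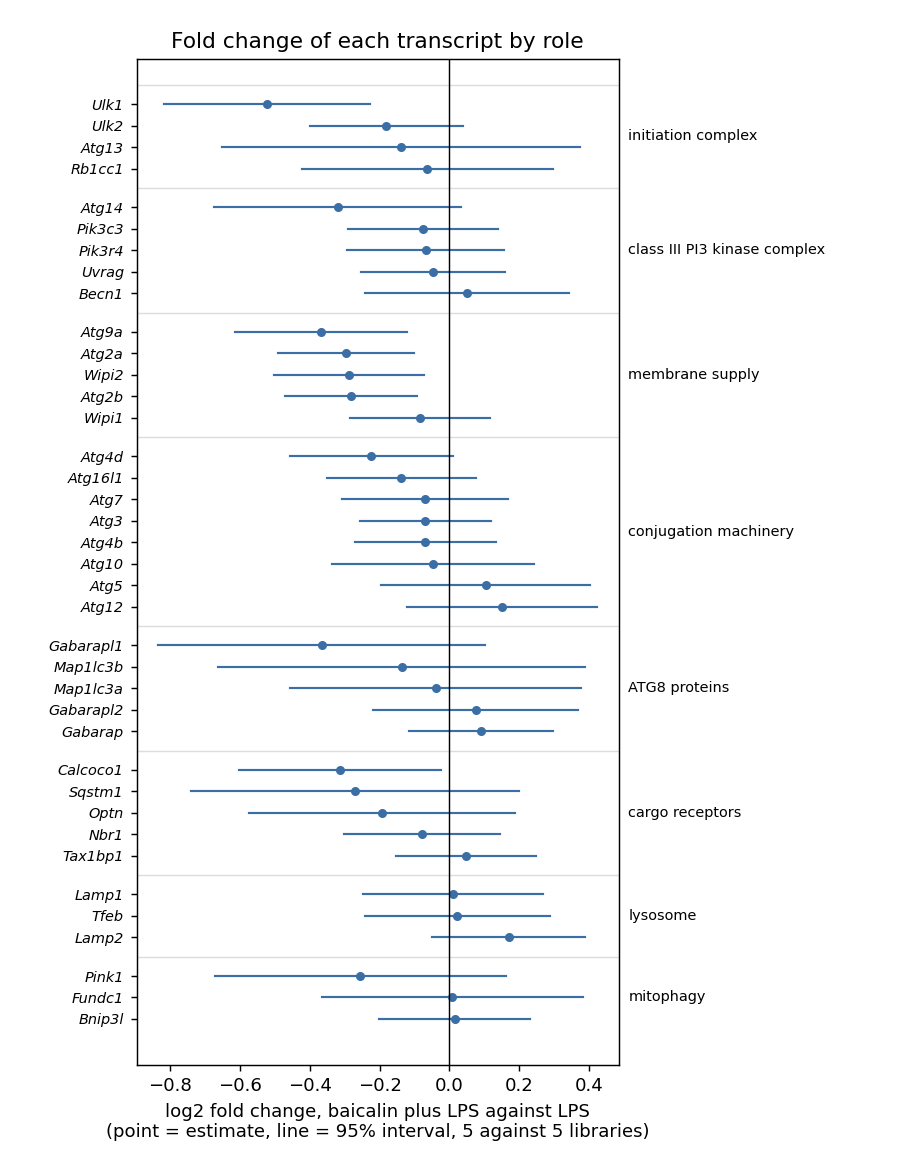
Log2 fold change of each of the 38 transcripts, baicalin plus LPS against LPS, by role, with the 95% interval from the edgeR fit as a line. All 5 genes of membrane supply lie left of 0, and the intervals of Ulk1, Atg2a, Atg2b, Wipi2, Atg9a and Calcoco1 leave out 0 before adjustment for 16850 genes.

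The initiation complex comprised Ulk1 and Ulk2, the kinases, Atg13, their regulatory partner, and Rb1cc1, which encodes the scaffold FIP200. Ulk1 (chr5:110784488-110810097, minus strand) stood at 108, 93.8, 116, 89.8 and 74.6 CPM in LPS 1 to 5. It stood at 61.4, 68.7, 67.3, 79.8 and 58.2 CPM in baicalin 1, 2, 3, 5 and 7. LPS 5 fell among the baicalin libraries, and the other 4 LPS libraries lay above all of them. The means were 96.3 ± 16.1 and 67.1 ± 8.30 CPM (SD, n = 5 each). On the log2 scale the fold change was -0.52 ± 0.13 (SE). The edgeR p was 0.00249 unadjusted and 0.298 adjusted.

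Ulk1 was the only member that DESeq2 called, with an adjusted p of 0.0384, as 1 of 151 genes called lower (0.953% of those it tested). In deposited FPKM its groups did not overlap, with 12.2 to 15.6 in LPS and 9.30 to 12.1 with baicalin. Of all genes, 0.789% were lower without overlap on that scale. With 1 surrogate variable in the edgeR fit, 0.641% of genes were called and none of the 38 members was. Its 3 highest CPM values were in LPS 1, 2 and 3, and without those libraries the log2 fold change was -0.28 with an unadjusted edgeR p of 0.11.

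The paralogue Ulk2 had a log2 fold change of -0.18 ± 0.10 (edgeR adjusted p = 0.53). Atg13, the most abundant gene of the complex, stood at 70.7, 70.3, 77.6, 95.2 and 94.2 CPM in the LPS libraries. With baicalin it stood at 91.8, 45.3, 50.2, 111 and 72.6 CPM. Baicalin 2 and 3 were the lowest of the 10 and baicalin 5 the highest, so the baicalin libraries enclosed the LPS range. Atg13 differed by -0.14 ± 0.23 on the log2 scale, and by 0.17 without baicalin 2 and 3. Rb1cc1 differed by -0.06 ± 0.16, and by 0.26 without LPS 1 to 3. All 4 genes of the complex had a lower mean with baicalin, or 3 of 4 with library totals.

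The class III PI3 kinase complex makes the phosphatidylinositol 3-phosphate on which later factors land. Becn1, which encodes the regulatory subunit Beclin 1, stood at 26.2, 25.3, 23.8, 31.2 and 29.8 CPM in the LPS libraries. It stood at 32.7, 24.3, 22.4, 33.4 and 28.5 CPM with baicalin. The groups overlapped, and the log2 fold change was 0.05 ± 0.13 (edgeR adjusted p = 0.920). Atg14, the subunit that directs the complex to autophagy, stood at 9.85, 7.62, 10.2, 5.61 and 7.36 CPM in the LPS libraries and at 6.46, 6.34, 6.21, 6.45 and 7.05 CPM with baicalin. Its LPS values were spread and its baicalin values were close together, inside the LPS range. Atg14 differed by -0.32 ± 0.16 on the log2 scale (edgeR adjusted p = 0.486), and by 0.01 without LPS 1 to 3. Pik3c3, the lipid kinase, differed by -0.08 ± 0.10, its membrane anchor Pik3r4 by -0.07 ± 0.10 and Uvrag by -0.05 ± 0.09 on the log2 scale. Thus 4 of 5 genes had a lower mean, or 1 of 5 with library totals.

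Membrane supply was the role in which the lower values gathered. Its 5 genes had a median log2 fold change of -0.29, which was -0.28 without LPS 1 to 3 and -0.22 without baicalin 2 and 3. Of its 4 genes below an unadjusted p of 0.05, those fits left 1 and 3 in number, beside 7.25% and 5.43% of all genes. With library totals 1 of the 4 was left (Atg9a), beside 2.81% of all genes. In the fit of all libraries, 3 of these 4 genes did not overlap between groups in TMM-scaled CPM. Beside them, 1.58% of all genes were lower without overlap. No member was higher without overlap, beside 0.878% of all genes, and the 3 are to be read against 2.46% of genes in either direction. Atg2a and Atg2b encode lipid transfer proteins that bridge the endoplasmic reticulum to the growing membrane. Atg2a (chr19:6241668-6262335, plus strand) stood at 33.2, 31.6, 35.4, 38.2 and 29.8 CPM in the LPS libraries and at 25.9, 27.8, 26.5, 29.0 and 27.8 CPM with baicalin. The lowest LPS library lay just above the highest baicalin library. The log2 fold change was -0.30 ± 0.09, with an edgeR p of 0.00645 unadjusted and 0.3005 adjusted.

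Atg2b (chr12:105616136-105685211, minus strand) stood at 30.6, 30.2, 31.5, 33.5 and 31.7 CPM in the LPS libraries. It stood at 29.3, 25.1, 23.5, 27.2 and 24.5 CPM with baicalin. The LPS values were close together and all lay above the baicalin values, with baicalin 1 the nearest. The log2 fold change of Atg2b was -0.28 ± 0.09 (edgeR adjusted p = 0.3005). Without LPS 1 to 3 it was -0.32, with an unadjusted edgeR p of 0.0388, the only lower member below 0.05 in that fit.

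Atg9a (chr1:75180860-75192196, minus strand) encodes the lipid scramblase of the vesicles that seed the membrane. It stood at 44.0, 40.5, 50.2, 38.7 and 38.6 CPM in the LPS libraries and at 30.4, 33.8, 33.6, 38.5 and 28.0 CPM with baicalin. The groups were separated by less than the spread within either, since LPS 5 and baicalin 5 were nearly equal. The log2 fold change was -0.37 ± 0.11 (edgeR adjusted p = 0.3005), and -0.22 without LPS 1 to 3. On the deposited FPKM scale, which uses library totals, Atg2a, Atg2b and Atg9a each overlapped between groups.

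Wipi1 and Wipi2 encode proteins that read phosphatidylinositol 3-phosphate. Wipi2 (chr5:142627698-142670588, plus strand), which recruits the conjugation machinery, stood at 32.2, 27.1, 30.5, 31.9 and 28.6 CPM in the LPS libraries and at 24.3, 23.4, 21.6, 28.9 and 24.9 CPM with baicalin. Baicalin 5 alone reached into the LPS range. For Wipi2 the log2 fold change was -0.29 ± 0.10 (edgeR adjusted p = 0.326). Wipi1 was the most abundant gene of this role, at 72.6, 80.4, 84.1, 69.8 and 72.1 CPM in the LPS libraries and 67.2, 75.8, 77.8, 67.4 and 69.4 CPM with baicalin. Its groups overlapped and its log2 fold change was -0.08 ± 0.09, or 0.01 with library totals.

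**Figure D3:**
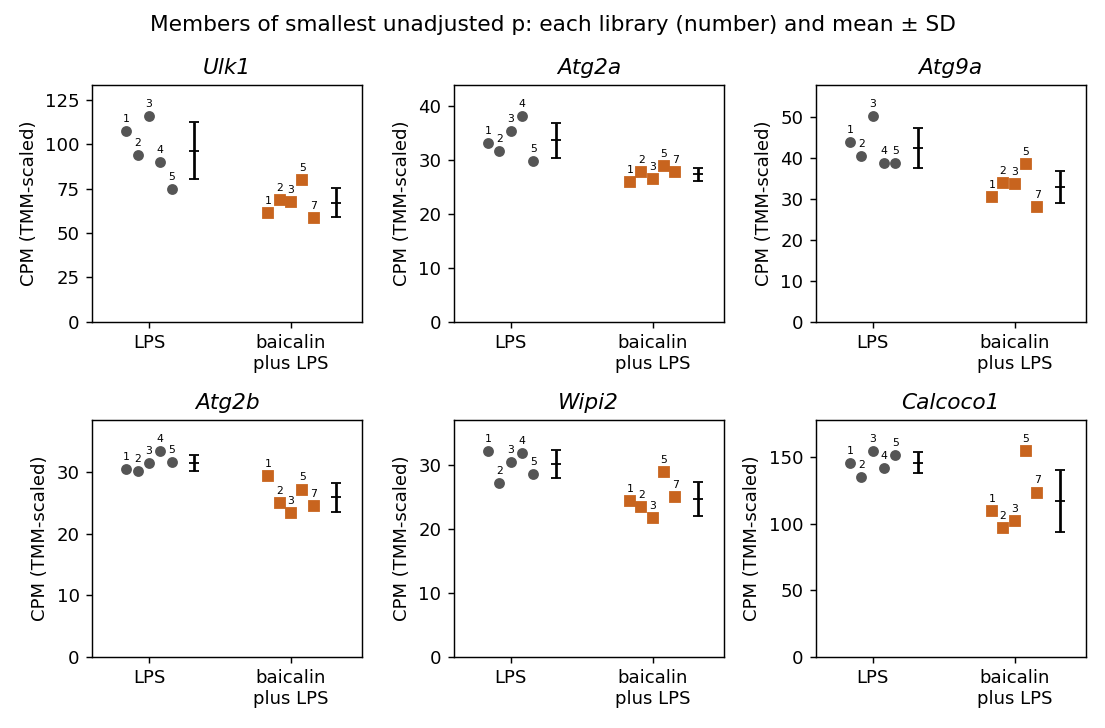
TMM-scaled CPM of the 6 transcripts of smallest unadjusted p in each library, numbered by replicate, with the mean and SD of each group (n = 5). The groups are separate for Atg2a, Atg2b and Atg9a and share part of their range for Ulk1, Wipi2 and Calcoco1, in which LPS 5 (Ulk1) or baicalin 5 (Wipi2 and Calcoco1) crosses.

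Marker lists of several cell types lay in the same direction as these transcripts or in the opposite one. Of the endothelial markers 10 of 12 had a lower mean with baicalin, and their sum had a median of 927 CPM (871 to 1202) beside 1219 CPM (1136 to 1401) in LPS. In the fit without LPS 1 to 3 the count was again 10, and without baicalin 2 and 3 it was 11. Of the cardiomyocyte markers 8 of 10 had a lower mean, with a summed median of 50230 CPM (46460 to 54460) beside 73710 CPM (39480 to 81830). That direction turned without LPS 1 to 3, when 7 of 10 were higher, and the sums in LPS 4 and 5, 39480 and 45600 CPM, lay below every baicalin library. Red blood cell markers were lower for 6 of the 6 tested, with a summed range of 21.5 to 72.9 CPM beside 13.2 to 488 CPM. Smooth muscle and pericyte markers were lower for 6 of 8, or 4 of 8 without LPS 1 to 3. Macrophage markers had a higher mean for 11 of 12, with a median of 862 CPM (328 to 1326) beside 215 CPM (189 to 561), and for 7 of 12 without LPS 1 to 3. Fibroblast markers had a higher mean for 8 of 8, with a median of 835 CPM (463 to 2009) beside 572 CPM (506 to 757), and for 5 of 8 without baicalin 2 and 3. No marker on these lists was at 0 in all libraries. The part of cell composition in the values of Ulk1 and of the membrane supply genes was not tested.

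The conjugation machinery showed small differences only. Atg3, the E2-like enzyme that passes ATG8 proteins to lipid and the most abundant gene of the role, stood at 24.0, 22.7, 24.3, 26.6 and 21.8 CPM in the LPS libraries and at 24.4, 22.8, 22.0, 23.02 and 21.5 CPM with baicalin. The groups shared most of their range and the log2 fold change was -0.07 ± 0.09. Atg4d, a protease that processes ATG8 proteins, stood at 22.9, 22.1, 23.6, 18.6 and 18.04 CPM in the LPS libraries and at 18.8, 18.5, 15.9, 17.8 and 19.1 CPM with baicalin. LPS 1 to 3 were its 3 highest values, while LPS 4 and 5 lay among the baicalin libraries. For Atg4d the log2 fold change was -0.22 ± 0.11 (edgeR adjusted p = 0.461), and -0.01 without LPS 1 to 3.

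The other 6 genes of conjugation ranged from -0.14 ± 0.10 for Atg16l1, which sets the site of lipidation, to 0.15 ± 0.12 for Atg12, the ubiquitin-like partner of ATG5. Atg12 was the only member higher without overlap in deposited FPKM, at 3.67 ± 0.222 with baicalin against 3.12 ± 0.124 in LPS (SD, n = 5), where 0.843% of all genes were. In TMM-scaled CPM its groups overlapped. Without LPS 1 to 3 its log2 fold change was 0.39, with an unadjusted edgeR p of 0.035, and with library totals it was 0.24, with an unadjusted p of 0.0224. Atg5 differed by 0.10 ± 0.14, and Atg7, Atg10 and Atg4b lay between -0.07 and -0.05 on the log2 scale. In all 6 of 8 genes had a lower mean, or 2 of 8 with library totals.

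The ATG8 proteins are the ubiquitin-like tags of the autophagosome membrane, in an LC3 and a GABARAP branch. Map1lc3a stood at 157, 145, 179, 182 and 156 CPM in the LPS libraries and at 138, 137, 109, 239 and 175 CPM with baicalin. Its lowest and highest values were both in the baicalin group, with means of 164 ± 16.1 and 160 ± 50.05 CPM (SD, n = 5). The log2 fold change was -0.04 ± 0.19 (edgeR adjusted p = 0.960). Gabarapl1 stood at 100.0, 88.8, 98.8, 85.8 and 88.3 CPM in the LPS libraries and at 85.3, 45.7, 47.5, 105 and 75.4 CPM with baicalin. Baicalin 2 and 3 stood far below the rest, and baicalin 5 was the highest of the 10. For Gabarapl1 the log2 fold change was -0.37 ± 0.21 (edgeR adjusted p = 0.554), and -0.06 without baicalin 2 and 3. Map1lc3b differed by -0.14 ± 0.24, and by -0.55 without LPS 1 to 3, Gabarap by 0.09 ± 0.09 and Gabarapl2 by 0.08 ± 0.13.

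The mix of ATG8 transcripts within each library overlapped between groups for each of the 5 genes, and no test was made of it. Of their summed FPKM, Map1lc3a made up 46.5 ± 2.29% in LPS and 46.1 ± 5.52% with baicalin (SD, n = 5), and Gabarap 27.5 ± 2.01% and 31.3 ± 6.96%. Gabarap spanned 24.5 to 29.5% in LPS and 21.4 to 40.5% with baicalin, and in baicalin 3 it exceeded Map1lc3a, at 39.8%. Gabarapl1 made up 15.4 ± 1.67% and 12.1 ± 2.61%, with 9.05%, 10.2% and 12.0% in baicalin 2, 3 and 7, below the LPS minimum of 12.9%. Map1lc3b made up 7.25 ± 2.06% and 6.88 ± 0.605%, with its largest share, 10.5%, in LPS 4. These shares do not depend on how libraries are scaled to each other.

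Cargo receptors bind ubiquitin or organelle proteins on one side and ATG8 proteins on the other. Sqstm1 stood at 367, 332, 355, 459 and 410 CPM in the LPS libraries and at 329.9, 229, 211, 485 and 340.3 CPM with baicalin. Baicalin 2 and 3 were again the lowest and baicalin 5 the highest of the 10 libraries. Sqstm1 differed by -0.27 ± 0.21 on the log2 scale (edgeR adjusted p = 0.672), by 0.00 without baicalin 2 and 3, and by -0.43 without LPS 1 to 3. Calcoco1 (chr15:102706777-102722178, minus strand), a receptor for autophagy of the endoplasmic reticulum, stood at 146, 135, 155, 142 and 151 CPM in the LPS libraries and at 109.6, 96.3, 102, 155 and 123 CPM with baicalin. All baicalin libraries but baicalin 5 lay below the LPS range. Calcoco1 differed by -0.31 ± 0.13 on the log2 scale (edgeR adjusted p = 0.412), and by -0.17 without baicalin 2 and 3. Optn, a receptor in mitophagy, differed by -0.19 ± 0.17, and Nbr1 and Tax1bp1, which bind ubiquitinated cargo, by -0.08 ± 0.10 and 0.05 ± 0.09.

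The lysosomal members did not share the lower means. Lamp1 stood at 306, 301, 328, 396 and 304 CPM in the LPS libraries and at 319, 348, 359.8, 339.5 and 280.4 CPM with baicalin. LPS 4 was the highest and baicalin 7 the lowest, and the log2 fold change was 0.01 ± 0.12. Lamp2, whose product is needed for autophagosome clearance in heart muscle and whose loss causes Danon disease in humans, stood at 182, 177, 186, 207 and 222 CPM in the LPS libraries. It stood at 234, 216, 228, 211 and 206 CPM with baicalin. LPS 1 to 3 were its 3 lowest values, and LPS 4 and 5 lay among the baicalin libraries. For Lamp2 the log2 fold change was 0.17 ± 0.10 (edgeR adjusted p = 0.555), and 0.04 without LPS 1 to 3. Tfeb differed by 0.02 ± 0.12.

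Among the mitophagy genes, Pink1 stood at 377, 308, 370.4, 328 and 329 CPM in the LPS libraries and at 295, 228, 181, 363 and 369 CPM with baicalin. Baicalin 1, 2 and 3 lay below the LPS range, and baicalin 5 and 7 lay inside it. Pink1 differed by -0.25 ± 0.19 on the log2 scale (edgeR adjusted p = 0.644), and by 0.00 without baicalin 2 and 3. Bnip3l and Fundc1 encode receptors of the outer mitochondrial membrane that work without PINK1. They differed by 0.01 ± 0.10 and 0.01 ± 0.17 on the log2 scale, and by 0.14 and 0.36 without LPS 1 to 3. Bnip3l averaged 42.1 ± 4.59 CPM in LPS and 42.5 ± 2.86 CPM with baicalin (SD, n = 5).

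Variation between libraries crossed the groups in a repeated form. Baicalin 2 and 3 were the 2 lowest of the 10 libraries for 7 members (18.4%), beside 9.41% of all genes tested. These 7 were Atg13, Wipi2, Map1lc3a, Gabarapl1, Sqstm1, Calcoco1 and Pink1, drawn from 5 roles, and the same libraries had the highest summed fibroblast and macrophage markers. Their part in the 7 values was not tested. LPS 4 was the lowest library for 10 members and the highest for 7, shares of 26.3% and 18.4% beside 25.3% and 24.3% of all genes. LPS 1 to 3 were the 3 highest for 5 of 38 members (Ulk1, Pik3c3, Atg14, Atg9a and Atg4d), beside 9.55% of all genes. They were the 3 lowest for 1 member (Lamp2), beside 9.61% of all genes. The members were steadier than most genes: their median coefficient of variation was 9.92% in LPS and 11.3% with baicalin, beside 22.7% and 19.8% over all genes, which include many at lower counts.

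**Figure D4:**
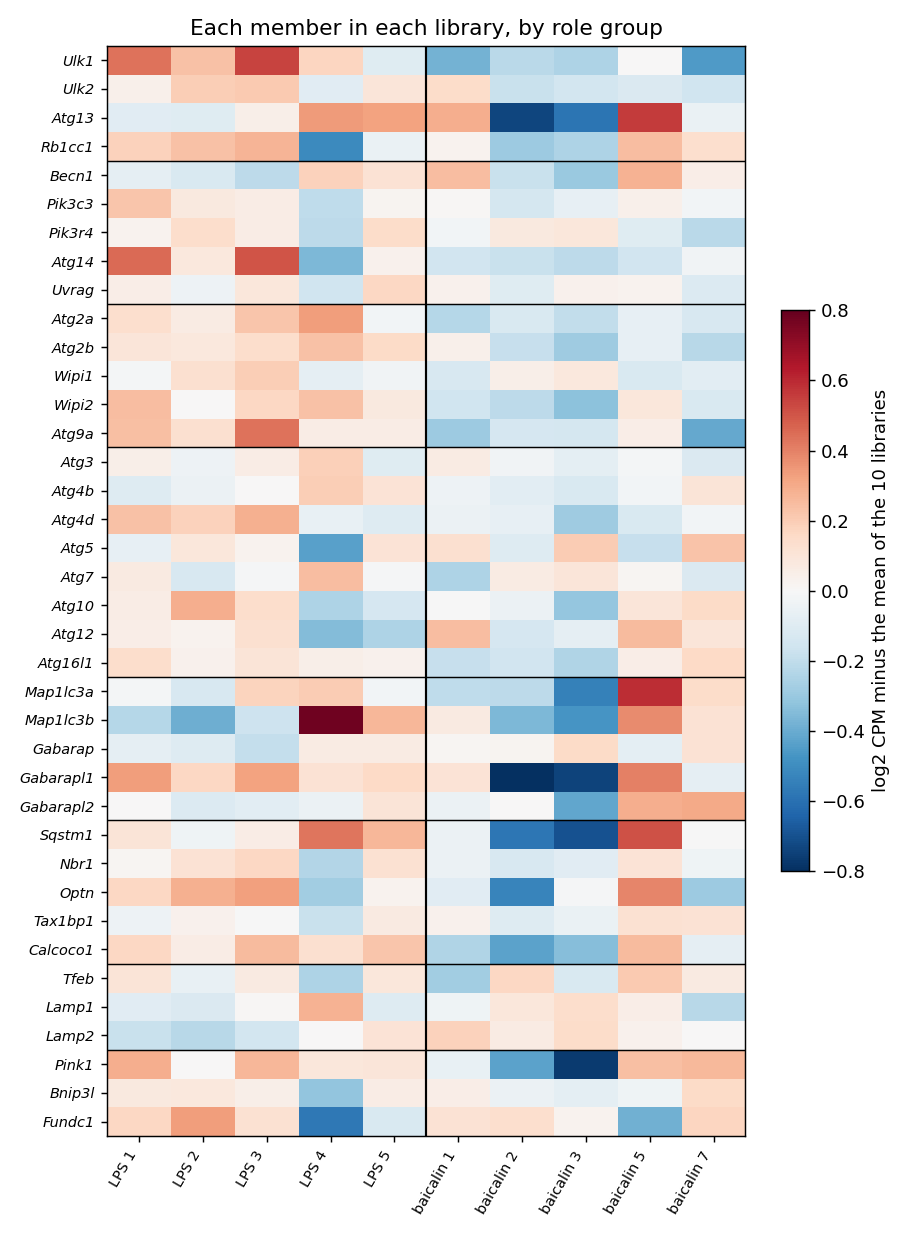
Log2 CPM of each of the 38 transcripts in each of the 10 libraries, minus that gene's mean over the libraries, with roles separated by lines and the groups by a vertical line. Blue cells in baicalin 2 and 3 mark Atg13, Gabarapl1, Sqstm1, Calcoco1 and Pink1, and the colour scale runs from -0.8 to 0.8 with values between -0.794 and 0.775.

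The wider pathway was read from 135 further genes in 8 lists, all of which were tested. None had an adjusted p below 0.05 in edgeR, and at an unadjusted p below 0.05, 15 were lower and 6 higher with baicalin, beside the same background of 5.88% and 5.26%. Without LPS 1 to 3 these counts were 7 and 3, beside 7.25% and 4.8% of all genes. Without baicalin 2 and 3 they were 11 and 5, beside 5.43% and 4.01% of all genes. Counts of lower and higher means in these lists are to be read against 50.6% of all genes lower. That share was 45.8% without LPS 1 to 3 and 52.4% without baicalin 2 and 3. The lists named below were chosen with earlier results of these data known.

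Upstream of initiation, mTORC1 is the kinase complex that restrains ULK1, and AMP-activated protein kinase activates it. Of 25 genes of mTORC1 and its regulators, 20 had a lower mean with baicalin, beside 50.6% of all genes, and the median log2 fold change was -0.16. Of these, 7 were lower at an unadjusted p below 0.05, beside 5.88% of all genes. With library totals 16 were lower and 5 passed that p, beside 38.6% and 2.81% of all genes. Leaving out LPS 1 to 3, 16 were lower with a median of -0.05, beside 45.8% and 0.045 over all genes. In that fit 3 were lower and 1 higher at that p, beside 7.25% and 4.8% of all genes. Without baicalin 2 and 3, 19 were lower with a median of -0.10, beside 52.4% and -0.02 over all genes. In that fit 5 were lower at that p, beside 5.43% of all genes. Ddit4, a stress-induced inhibitor of mTORC1, stood at 86.9, 44.3, 70.3, 58.6 and 52.3 CPM in the LPS libraries and at 22.9, 33.4, 25.3, 38.6 and 32.5 CPM with baicalin. Its groups did not overlap, and its log2 fold change was -1.03 ± 0.20 (adjusted p = 0.201 in edgeR and 0.00124 in DESeq2). Tsc2, another inhibitor of mTORC1, also did not overlap, with a log2 fold change of -0.32 ± 0.08 (adjusted p = 0.278 in edgeR and 0.00140 in DESeq2). Of all genes, 1.58% were lower without overlap, and DESeq2 called 0.953% of those it tested lower. Flcn, which acts on the Rag GTPases, differed by -0.62 ± 0.17 (edgeR adjusted p = 0.299) and by -0.21 without LPS 1 to 3.

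The 9 genes of AMP-activated protein kinase and its activators were split, with 5 higher and 4 lower. Prkag2, a regulatory subunit, had a log2 fold change of 0.36 ± 0.14 (edgeR adjusted p = 0.377), the catalytic subunit Prkaa1 0.15 ± 0.09 and Prkab2 -0.16 ± 0.19. Of 9 transcription factors and cofactors of autophagy genes, 6 were lower. Foxo3, which drives autophagy genes in muscle, stood at 154, 127, 160.5, 62.0 and 90.2 CPM in the LPS libraries and at 61.2, 78.2, 70.1, 81.2 and 75.2 CPM with baicalin. LPS 1 to 3 lay far above the other 7 libraries. For Foxo3 the log2 fold change was -0.70 ± 0.23 (edgeR adjusted p = 0.324) and -0.05 without LPS 1 to 3. Foxo1 differed by -0.27 ± 0.12 on the log2 scale.

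At the far end of the pathway, 20 of 27 lysosomal hydrolases and membrane proteins had a higher mean with baicalin, with a median log2 fold change of 0.15. At an unadjusted p below 0.05, 3 were higher and 1 was lower, beside 5.26% and 5.88% of all genes. Npc2, a cholesterol carrier, differed by 0.25 ± 0.10 and Ctsf, a cathepsin, by -0.38 ± 0.13 on the log2 scale. The direction of the list turned without 3 libraries: without LPS 1 to 3, 15 of 27 had a lower mean and the median was -0.04. Of all genes 45.8% were lower in that fit, with a median of 0.045. Without baicalin 2 and 3, 16 of 27 were higher and the median was 0.03. Of all genes 52.4% were then lower, with a median of -0.02. Macrophages are rich in lysosomes, and their summed markers, given above, were higher with baicalin. Their part in this list was not tested.

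The proton pump that acidifies the lysosome had 10 of 15 genes higher, with a median log2 fold change of 0.04 and none below an unadjusted p of 0.05. Its genes of smallest p were Atp6v1a (0.24 ± 0.13), Atp6ap2 (0.24 ± 0.13) and Atp6v1h (0.14 ± 0.11). Of 13 genes of autophagosome-lysosome fusion, 6 were higher and 7 lower. The SNARE Snap29 differed by 0.20 ± 0.09 (edgeR adjusted p = 0.445), its partner Stx17 by 0.22 ± 0.12 and the tether Plekhm1 by -0.22 ± 0.11.

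Among 18 other autophagy genes, 12 were lower and 6 higher, with 4 lower and 1 higher at an unadjusted p below 0.05. The background at that p was 5.88% of all genes lower and 5.26% higher. Leaving out LPS 1 to 3 gave 1 lower and 0 higher, beside 7.25% and 4.8% of all genes. Atg101, a subunit of the ULK1 complex, had a log2 fold change of -0.38 ± 0.13 (edgeR adjusted p = 0.324). Wdr45, a relative of the WIPI proteins, differed by -0.54 ± 0.20 (edgeR adjusted p = 0.346) and Tecpr1 by -0.22 ± 0.09. Of 19 other mitophagy genes, 14 were lower and 5 higher, with a median of -0.08, beside 50.6% of all genes lower. Without baicalin 2 and 3 the direction turned, with 8 lower, 11 higher and a median of 0.04. Usp30, a deubiquitinase of the outer mitochondrial membrane, differed by -0.29 ± 0.12 (edgeR adjusted p = 0.398), Pgam5 by -0.21 ± 0.12 and Fkbp8 by -0.20 ± 0.14.

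**Figure D5:**
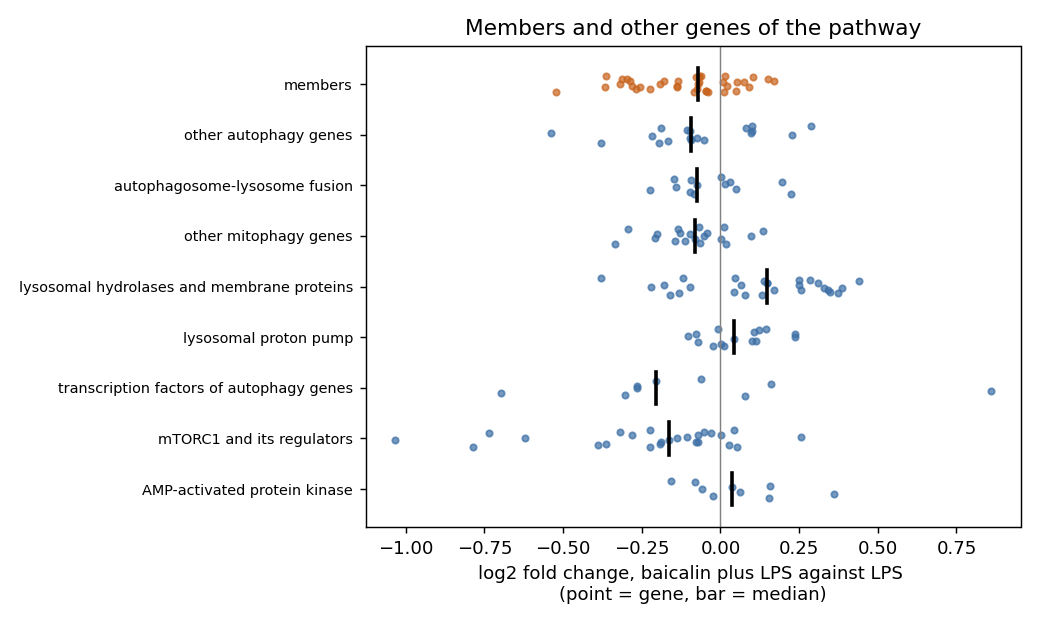
Log2 fold change of each gene, baicalin plus LPS against LPS, for the 38 members and the 8 lists of other pathway genes, with the median of each list as a bar. The median is -0.16 for mTORC1 and its regulators and 0.15 for lysosomal hydrolases and membrane proteins, and the lowest point of the mTORC1 list is Ddit4.

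For 8 members a protein-coding gene lies on the opposite strand and overlaps their annotation. The notes used here do not say whether counting used strand. Whether reads from the stretch that such a pair shares were told apart is therefore not known. Among the genes the comparison turned on, Atg9a (6.50 FPKM) overlaps Ankzf1 (2.17 FPKM) and Atg2b (2.14 FPKM) overlaps Gskip (1.41 FPKM). Ulk1, Atg2a, Wipi2 and Calcoco1 have no such partner. Bnip3l has an annotated copy elsewhere, Bnip3l-ps, and its count is uncertain for reads that match both. Whether other members have such copies is not reported here.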

How the data were processed

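RNA from mouse heart tissue was extracted with TRIzol and made into mRNA libraries, per the labels' protocols. The authors deposited read counts per Ensembl gene and an FPKM table. The counts are whole numbers, and the deposited FPKM equals the count divided by gene length and library total to within a relative deviation of 4.4e-13. The build is mm10, per the submitters' processing notes. No source used here gives the aligner, the counter or whether strand was used. Gene names came from GENCODE M21, which named 31076 of 31655 identifiers, and promoters from RefSeq on GRCm38.p6.

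Genes kept by filterByExpr (16850) were fitted in edgeR 4.0.16 (R 4.3.3) with TMM factors and robust quasi-likelihood dispersion, 5 against 5 libraries, and p-values were adjusted over all of them by Benjamini-Hochberg. Fold changes are baicalin plus LPS over LPS, given ± SE, and CPM are TMM-scaled unless a plain scale is named. The biological coefficient of variation was 31.4%. The script was tested on simulated data. Alternatives used DESeq2 1.42.0, limma 3.58.1 and sva 3.50.0, other scalings and filters, and fits without single libraries or without LPS 1 to 3 or baicalin 2 and 3. No 2 libraries agreed within sampling noise: the closest pair, LPS 1 and 3, had a chi-square of 15.2 per degree of freedom. Totals averaged 62.3 ± 12.5 M counts in LPS and 51.8 ± 8.31 M with baicalin (SD, n = 5; exact two-sided permutation test, p = 0.135).

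The members and lists were chosen with earlier results of these data known. Given in every library are, per role, the member of smallest p and that of highest FPKM, the members without overlap and the 6 of smallest p. In each wider list up to 3 genes of smallest p are named, and some are not reported here. Ddit4 and Foxo3 were chosen for values in every library after these had been seen.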

Additional observations from a re-analysis of the deposited data

Results flagged for a closer look

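Of 76 groups of 5 values (38 genes in the LPS and baicalin plus LPS groups), 3 had a library whose gap to its nearest neighbour was large for the range of its group by Dixon's criterion at the 95% level. Chance alone flags about 5% of groups. Ulk2 stood at 85.3 CPM in baicalin 1, above the 68 to 71.0 CPM of the other baicalin libraries. Lamp1 stood at 396 CPM in LPS 4, above 301 to 328 CPM in the other LPS libraries. Bnip3l stood at 33.9 CPM in LPS 4, below the rest of its group. LPS 4 is also the library with the smallest mitochondrially encoded share, 30.2%.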

How the results depend on the processing

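Called genes numbered 0 with edgeR (1878 at an unadjusted p below 0.05), 2 without a filter on low counts, 267 with DESeq2, 108 with 1 surrogate variable and 2975 with limma-voom and sample quality weights. Members called were 0, 1 with DESeq2 (Ulk1) and 8 with quality weights, where 17.7% of all genes were called: Ulk1, Atg14, Atg2a, Wipi2, Atg9a, Atg4d and Calcoco1 lower, and Lamp2 higher. The 27 lower means became 16 with library totals. The median of -0.07 became 0.0063 with library totals, 0.0064 on log2(FPKM + 1) and 0.0086 on log2(FPKM + 0.1), with 18 lower means on each FPKM scale. These scalings moved all genes as well, to medians of 0.075, 0.038 and 0.080, and the members' median minus that of all genes stayed negative, at -0.068, -0.032 and -0.071. Leaving out each library in turn gave 0 called genes and members, 25 to 30 lower means and medians of -0.11 to -0.06. The replicate numbers shared by the groups (1, 2, 3 and 5) did not pair the libraries: deviations of same-numbered libraries correlated at -0.17 to 0.09, and none correlated best with its own number. With the replicate block, 0 genes and 0 members were called, 31 means were lower and the median was -0.14.

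For the 18 members given in every library, 28 values changed sign, and none of these passed an adjusted p of 0.05. Over all 38 members, 10 changed sign without LPS 1 to 3, 8 without baicalin 2 and 3, and 11 with library totals. Without LPS 1 to 3, Becn1 was -0.10, Atg14 0.012, Wipi1 0.022 and Lamp1 -0.076. Without baicalin 2 and 3, Atg13 was 0.17, Map1lc3a 0.17, Sqstm1 0.0018 and Lamp1 -0.064. With library totals, Wipi1 was 0.011, Atg3 0.0069 and Map1lc3a 0.0089, and Atg3 was 0.011 on log2(FPKM + 1) and 0.013 on log2(FPKM + 0.1). With a surrogate variable Becn1 was -0.023 and Lamp1 -0.022. Leaving out single libraries moved Becn1 between -0.015 and 0.124, Map1lc3a between -0.23 and 0.071 and Lamp1 between -0.024 and 0.087. The cause was not tested. Depth limits Atg14 most, the member with the lowest mean at 7.31 CPM.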

Other observations

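Ratios between paralogues within a library do not depend on how libraries are scaled to each other. The FPKM ratio of Ulk1 to Ulk2 was 1.08 ± 0.173 in LPS and 0.860 ± 0.144 with baicalin (SD, n = 5), with 0.833 to 1.25 in LPS and 0.663 to 1.04 with baicalin, so the groups overlapped. The ratio of Atg2a to Atg2b was 1.87 ± 0.139 and 1.86 ± 0.184, so this pair kept its proportion while both means were lower in TMM-scaled CPM. The ratio of Lamp1 to Lamp2 was 6.02 ± 0.709 and 5.37 ± 0.475. The ratio of Map1lc3a to Map1lc3b was 6.79 ± 1.74 and 6.72 ± 0.868, with 4.46 in LPS 4 and 8.40 in LPS 3. The summed FPKM of the 5 ATG8 genes ran from 248.5 to 368 in LPS and from 253 to 329.9 with baicalin, with LPS 4 the highest of the 10.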
